A study of Mus musculus with 19 samples.

Results

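Collagens are the triple-helical proteins of the extracellular matrix. The genes described here are all rows of the count table whose symbol is Col, a type number, a and a chain number. They numbered 43 of 20655 genes, and 42 of them had enough counts to be tested, Col28a1 with 98 counts in all libraries being the exception. By class, 11 encode fibrillar chains, 6 encode the type IV chains of basement membrane and 26 encode other chains. The last class holds 9 fibril-associated (FACIT), 6 beaded filament (type VI), 2 short-chain (type VIII), 2 multiplexin and 4 transmembrane chains and 3 remaining ones. Col10a1 was not analysed here.

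Bulk RNA of the left hippocampus was measured in 19 mice at 4 months of age, 1 library for each. All mice were hemizygous for the 5xFAD transgenes (5xFADHEMI), which put mutant human amyloid precursor protein and presenilin 1 under the neuronal Thy1 promoter. The groups were 5xFAD females (n = 5, numbered 1 to 5), 5xFAD males (n = 5, 6 to 10), and females (n = 4, numbers 1, 2, 4 and 5) and males (n = 5, 6 to 10) that were also homozygous for the clusterin knock-in CLUh2kbKI, whose sequence the labels do not give. The controls thus carry 5xFAD too, and mice without it were not analysed here. The animal and library numbers of the genotypes lie in separate ranges, so genotype and cohort cannot be told apart. Library totals ran from 17.28 to 25.2 M counts (M, mega), with a median of 19.36 M. No library repeated another of its group: the lowest chi-square per gene among the 36 pairs was 8.95, and counting noise alone gives 1. A list of 7 hippocampal neuron genes summed to 693 to 1121 CPM (counts scaled to a common library size with TMM factors) over the libraries, with no gene at 0. P-values measure the spread between single animals.

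Collagen chains join as trimers, and which chains can join is set by the type. Fibrillar collagens form cross-linked fibrils, type IV chains form the sheet-like network under endothelium and around pericytes, and FACIT collagens sit on fibril surfaces. Brain has little fibrillar collagen outside meninges, vessels and choroid plexus, and its vessels rest on type IV basement membrane. Neurons make some chains themselves, among them Col19a1, a FACIT collagen of interneurons, and Col25a1, a transmembrane collagen found in amyloid plaques. In bulk RNA, fewer cells of a type and less RNA per cell cannot be told apart.

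The upstream sequences below are those of the chains with the largest changes past the threshold in females, Col5a1 and Col19a1, and of gene pairs whose members moved together. They come from RefSeq promoters on GRCm38.p6, which matched 34 of the 43 collagens, and run 5′ to 3′ on the gene's strand. Capitals mark the GC box letters GGGCGG or their reverse complement CCGCCC. The first, Col5a1 (chr2:27886175-27886424, plus strand), holds 2 matches, and the second, Col19a1 (chr1:24587473-24587687, minus strand, with 35 bases of its own exon left out), holds 0.
Col5a1: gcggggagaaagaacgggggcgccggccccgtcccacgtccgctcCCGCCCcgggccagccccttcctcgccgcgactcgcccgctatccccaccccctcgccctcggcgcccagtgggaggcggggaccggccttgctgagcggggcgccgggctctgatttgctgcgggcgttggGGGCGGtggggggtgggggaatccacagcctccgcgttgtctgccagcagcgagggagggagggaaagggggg
Col19a1: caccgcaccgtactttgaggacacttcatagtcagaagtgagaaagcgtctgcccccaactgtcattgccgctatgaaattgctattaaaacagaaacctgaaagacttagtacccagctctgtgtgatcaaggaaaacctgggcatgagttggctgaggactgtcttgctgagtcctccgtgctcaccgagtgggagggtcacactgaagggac

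The short-chain pair Col8a1 (chr16:57754738-57754987, minus strand) and Col8a2 (chr4:126286544-126286792, plus strand) lies on different chromosomes, and each sequence holds 4 matches, with overlaps counted.
Col8a1: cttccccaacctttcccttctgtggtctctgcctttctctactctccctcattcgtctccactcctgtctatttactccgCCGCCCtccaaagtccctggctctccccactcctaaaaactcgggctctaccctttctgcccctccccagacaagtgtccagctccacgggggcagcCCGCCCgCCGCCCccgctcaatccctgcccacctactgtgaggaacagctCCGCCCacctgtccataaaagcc
Col8a2: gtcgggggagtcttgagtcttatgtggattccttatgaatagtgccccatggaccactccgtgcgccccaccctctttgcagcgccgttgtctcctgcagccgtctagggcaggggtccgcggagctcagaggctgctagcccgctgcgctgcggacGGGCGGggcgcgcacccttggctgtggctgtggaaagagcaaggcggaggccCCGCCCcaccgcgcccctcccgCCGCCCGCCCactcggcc

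The type IV genes lie in head-to-head pairs. The start regions of Col4a1 and Col4a2 share 22 bases (chr8:11312805-11312826, plus strand) with 1 match. Unlike the other sequences printed here, these 22 bases lie in exons of both genes and are not upstream of either start. Between Col4a4 and Col4a3 lie 71 bases (chr1:82586850-82586920, minus strand) with 0 matches.
shared by Col4a1 and Col4a2: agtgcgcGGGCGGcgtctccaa
between Col4a4 and Col4a3: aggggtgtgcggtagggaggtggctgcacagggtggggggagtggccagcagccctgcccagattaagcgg

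Over the 250 bases before the start, on both strands, GGGCGG was found in 20 of 34 collagen promoters (58.8%) and in 32.7% of all 27025 promoters. CCAAT was found in 11 of 34 collagens against 34.2% of all promoters, and TATAAA in 4 of 34 against 12.9%. Of the 9 collagens that fell in females and have a promoter in the table, 5 held GGGCGG, 4 held CCAAT and 0 held TATAAA. A match is a description of letters, not of a bound site.

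Levels were compared between genes per length, as CPM per kb of the longest protein-coding transcript (CPM/kb), averaged over the 19 libraries. The highest was Col9a3, a type IX chain of the FACIT class, at 12.4 CPM/kb, above 70.2% of all tested genes. Col25a1 followed at 8.95, then the vessel basement membrane chains Col4a2 at 7.46 and Col4a1 at 6.5 CPM/kb. Those 4 genes and the type VI chain Col6a1, at 5.15 CPM/kb, led the family, and the lowest 2 were Col28a1 at 0.0620 and Col6a6 at 0.0450 CPM/kb. Counted over all annotated exons in place of 1 transcript, Col9a3 stayed first, Col25a1 moved from rank 2 to 5 and Col1a2 from rank 8 to 16.

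**Figure D1:**
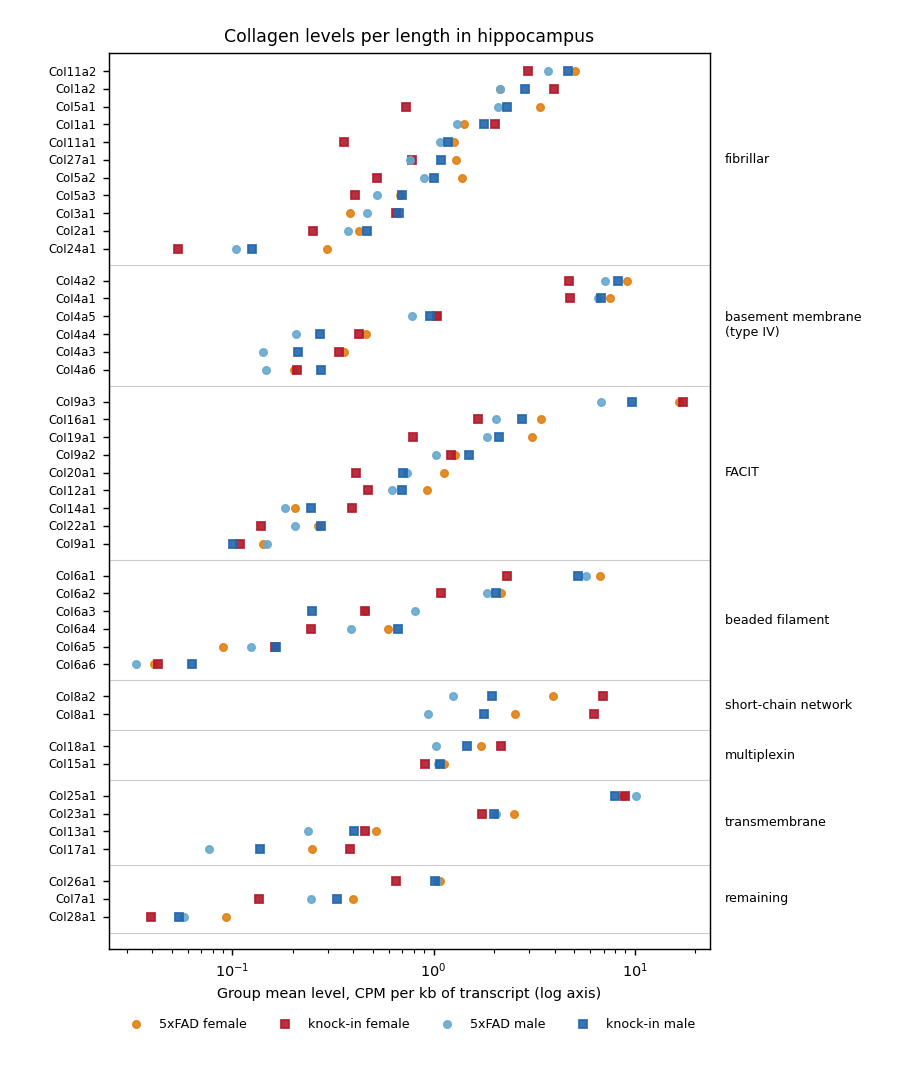
Group mean level of each of the 43 collagens in CPM per kb of transcript (log axis), by class, with 1 point for each of the 4 groups. Col9a3, Col25a1, Col4a2 and Col4a1 lie farthest right, and the knock-in females (red squares) lie left of the other groups for Col5a1, Col19a1, Col11a1 and Col6a1.

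Among the type IV chains, Col4a1 and Col4a2, which join into the main network of all basement membranes, far exceeded the others. Col4a5, on the X chromosome, was at 0.947 CPM/kb, and Col4a3, Col4a4 and Col4a6 were at 0.259, 0.337 and 0.208 CPM/kb. The ratio of Col4a1 to Col4a2 per length had a median of 0.879 over the libraries and ran from 0.710 to 1.13, the narrowest range of the 10 chain pairs compared. For Col4a3 over Col4a4 the median was 0.818, with a range of 0.131 to 1.06.

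Among the fibrillar chains, Col11a2, a chain of thin fibrils, was highest at 4.15 CPM/kb, ahead of Col1a2 at 2.71 and Col5a1 at 2.20 CPM/kb. Type I collagen holds more Col1a1 than Col1a2 chains, and the RNA ratio of Col1a1 to Col1a2 per length had a median of 0.622 (0.262 to 0.887). That ratio depended on the length used, since over all exons its median was 1.31. Col5a1 stood at a median of 2.03 times Col5a2, the chain it pairs with in type V fibrils.

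Among the FACIT chains, Col16a1 at 2.52 and Col19a1 at 2.03 CPM/kb came after Col9a3. Type IX collagen is built from all its chains together, and Col9a3 exceeded Col9a2 by a median of 8.98 times and Col9a1 by a median of 117 times. Among the beaded filament chains, Col6a1 had a median of 2.65 times the level of Col6a2 (1.82 CPM/kb) and 16.2 times that of Col6a3 (0.494 CPM/kb). The short-chain genes Col8a2 and Col8a1 were at 3.34 and 2.70 CPM/kb. Of the rest, the multiplexins Col18a1, a vessel and choroid plexus heparan sulfate collagen, and Col15a1 were at 1.56 and 1.05 CPM/kb, the transmembrane chains Col23a1 and Col13a1 at 2.09 and 0.402 CPM/kb, Col26a1 at 0.963 CPM/kb and Col7a1, the anchoring fibril chain, at 0.285 CPM/kb.

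In females, 11 of the 42 tested collagens fell with the knock-in and 0 rose (edgeR quasi-likelihood test, Benjamini-Hochberg adjusted p under 0.05). Over all tested genes, 4.43% were called lower and 1.13% higher. By class, 3 of 11 fibrillar, 2 of 6 type IV and 6 of 25 other chains fell, the latter being 4 FACIT and 2 beaded filament chains. The median log2 change of the 42 was -0.46, against 0.01 over all genes, and 14 of 42 were above 0, against 51.1% of all genes. In 10 of the 11, all but Col20a1, every knock-in female lay below every 5xFAD female, an arrangement shown by 9.03% of all genes, and in 0 collagens did every knock-in female lie above, against 3.86%.

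Col5a1 (ENSMUSG00000026837, chromosome 2), which starts and limits the width of collagen fibrils, was at 38.6, 16.0, 21.7, 41.5 and 24.4 CPM in 5xFAD females 1 to 5. The knock-in females 1, 2, 4 and 5 had 6.80, 3.61, 5.56 and 8.43 CPM. All knock-in females were thus below the lowest 5xFAD female, and the groups did not overlap. The log2 change was -2.21 (SE 0.44, edgeR adjusted p = 0.0122), with 28.4 ± 11.1 CPM in 5xFAD (SD, n = 5) and 6.10 ± 2.03 CPM with the knock-in (SD, n = 4). In males Col5a1 was at 22.7, 14.9, 24.0, 20.8 and 5.34 CPM in 5xFAD males 6 to 10 and at 16.3, 14.7, 15.2, 13.7 and 37.6 CPM in knock-in males 6 to 10. The male groups overlapped, with 5xFAD male 10 lowest and knock-in male 10 highest of the males.

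The partner chain Col5a2 was at 10.8, 10.3, 6.4, 10.3 and 8.07 CPM in 5xFAD females and at 3.72, 3.50, 3.38 and 3.27 CPM in knock-in females. The knock-in females lay close together and below the whole 5xFAD range, and the log2 change was -1.40 (SE 0.28, edgeR adjusted p = 0.0116). Col11a1, which forms thin fibrils with Col11a2 and type V chains, was at 10.4, 11.6, 10.2, 8.45 and 7.92 CPM in 5xFAD females and at 4.72, 1.59, 1.66 and 2.99 CPM in knock-in females. It too showed no overlap, and the log2 change was -1.82 (SE 0.42, edgeR adjusted p = 0.0197). Col11a2 itself had 30.6 ± 7.82 CPM (SD, n = 5) and 17.8 ± 6.92 CPM (SD, n = 4), a log2 change of -0.78 that missed the threshold (edgeR adjusted p = 0.0974). Col1a2, a chain of the main fibrils of meninges, had a log2 change of 0.89 (edgeR adjusted p = 0.107), with 11.4 ± 3.71 CPM in 5xFAD (SD, n = 5) and 21.2 ± 5.41 CPM with the knock-in (SD, n = 4). The lowest log2 change of any collagen, -2.35, was that of Col24a1, a gene picked here after its values were seen. It did not pass the test (edgeR adjusted p = 0.178), with 0.460 to 4.25 CPM in 5xFAD females and 0 CPM in 2 of the 4 knock-in females.

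Of the type IV pair, Col4a1 was at 55.6, 50.7, 46.1, 48.9 and 46.7 CPM in 5xFAD females and at 33.6, 24.8, 32.4 and 35.1 CPM in knock-in females. The groups were apart, and the log2 change was -0.66 (SE 0.15, edgeR adjusted p = 0.0192). Col4a2 was at 74.2, 58.5, 49.7, 58.1 and 55.1 CPM against 33.7, 23.3, 28.2 and 36.0 CPM, also without overlap, and the log2 change was -0.96 (SE 0.22, edgeR adjusted p = 0.0180). The other type IV chains did not pass, and Col4a5, the next by level, had a log2 change of 0.01. Male values of Col4a2 ran from 34.5 to 56.1 CPM in 5xFAD and from 33.1 CPM upward with the knock-in, where male 10 was highest, so that the male ranges overlapped.

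The FACIT chain Col19a1 (ENSMUSG00000026141, chromosome 1), which interneurons use in forming synapses, was at 13.0, 11.7, 11.1, 18.3 and 11.7 CPM in 5xFAD females. Knock-in females had 5.16, 2.49, 2.03 and 3.76 CPM. Every knock-in female was below every 5xFAD female, and the log2 change was -1.96 (SE 0.35, edgeR adjusted p = 0.00984), the lowest adjusted p among the collagens. In males Col19a1 was at 7.56, 8.70, 8.55, 8.90 and 5.78 CPM in 5xFAD and at 10.1, 3.84, 4.85, 9.59 and 17.0 CPM with the knock-in, and those ranges overlapped. The summed level of 7 interneuron genes was 697 to 793 CPM in 5xFAD females and 646 to 858 CPM in knock-in females, with 0 of the 7 called and no gene at 0.

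The other FACIT chains that fell were Col16a1, Col20a1 and Col12a1. Col16a1 was at 25.3, 17.4, 13.8, 19.7 and 13.2 CPM in 5xFAD females and at 11.8, 6.84, 7.02 and 8.92 CPM in knock-in females, and its log2 change was -1.05 (SE 0.25; edgeR adjusted p = 0.0199) with no overlap. Col20a1 was at 7.77, 5.67, 3.67, 6.95 and 4.24 CPM against 1.89, 1.17, 1.25 and 3.97 CPM, with a log2 fold of -1.44 (SE 0.36, edgeR adjusted p = 0.0241). Knock-in female 5 lay inside the 5xFAD range for this gene. Col12a1, which links fibrils to their surroundings, was at 12, 9.76, 7.55, 11 and 12.8 CPM against 5.36, 5.30, 4.37 and 6.79 CPM, with a log2 fold of -0.96 (SE 0.28, edgeR adjusted p = 0.0440). That gene did not overlap but stood nearest to the threshold. Col9a3, the FACIT chain with the highest level, had a log2 change of 0.05, at 50.7 ± 26.3 CPM in 5xFAD (SD, n = 5) and from 32.5 to 76.5 CPM in knock-in females.

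Of the beaded filament chains, which form a fine network beside basement membranes, Col6a1 was at 28.7, 39.2, 20.3, 27.7 and 22.4 CPM in 5xFAD females and at 14.1, 8.54, 7.02 and 8.43 CPM in knock-in females. No values overlapped, and the log2 change was -1.54 (SE 0.34, edgeR adjusted p = 0.0169). Its neighbour on chromosome 10, Col6a2, was at 10.6, 11.6, 6.97, 12.9 and 8.33 CPM against 6.01, 4.30, 5.15 and 4.74 CPM, with a log2 fold of -1.0 (SE 0.25, edgeR adjusted p = 0.0255). Col6a3, the third chain of the same protein, was uneven within groups, at 1.53 to 12.7 CPM in 5xFAD females and 1.64 to 12.1 CPM in knock-in females, and did not pass. Among the remaining classes 0 collagens passed in females. Col7a1 had a log2 change of -1.53 (edgeR adjusted p = 0.0780), Col26a1 -0.72, Col23a1 -0.54, Col15a1 -0.31, Col13a1 -0.18, Col25a1 0.04, Col18a1 0.33, Col8a2 0.82 and Col8a1 1.31.

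**Figure D2:**
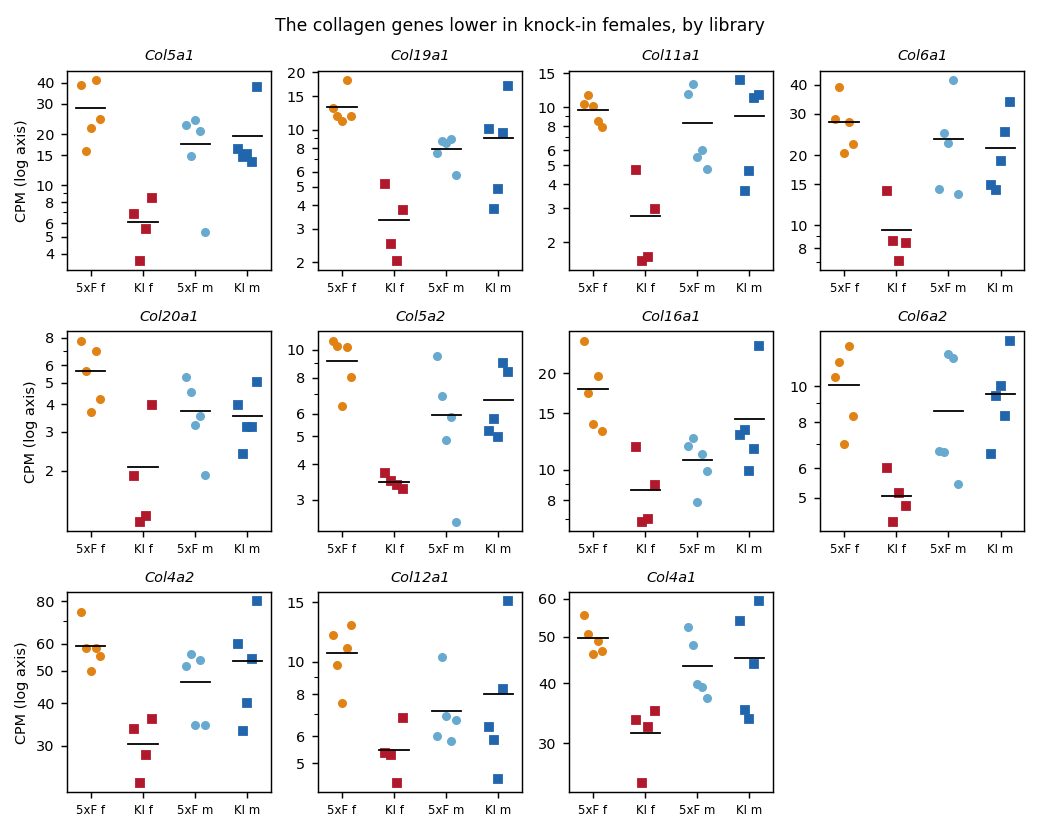
CPM (log axis) of the 11 collagens that fell in females, with 1 point per library, group means as bars, and groups as 5xFAD females (5xF f), knock-in females (KI f), 5xFAD males (5xF m) and knock-in males (KI m). The 4 knock-in females lie below all 5 5xFAD females in every panel but Col20a1, while the male groups overlap in every panel.

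These female calls rested on few animals. Without knock-in female 2, or without knock-in female 4, 0 of the collagens and 0 of all genes passed in edgeR. Col5a1 and Col19a1 then had log2 changes of -2.04 to -2.15 and -1.76 to -1.86. In these 2 fits 14 and 17 collagens had an unadjusted p under 0.05, and the share of all genes there is not given here. In the full fit 18 of 42 collagens and 22.1% of all genes had such a p. Without 5xFAD female 1, 5 collagens passed among 364 of all genes, and without 5xFAD female 4, 7 passed among 439, against 1013 of all genes in the full fit. On the authors' normalized counts, tested with limma, 5 of the 42 fell, among 866 of all genes called. Col5a1, Col4a1, Col4a2, Col6a2, Col12a1 and Col16a1 were no longer called there, while Col19a1, Col5a2, Col11a1, Col20a1 and Col6a1 were.

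In males, 0 of 42 collagens passed in edgeR, as did 0% of all genes, and 0 passed in DESeq2 and in limma-voom. At an unadjusted p under 0.05 there was 1 collagen, against 6.52% of all genes. Of the 42, 35 had a log2 change above 0, against 51.9% of all genes, with a median of 0.39. The 43 collagens summed to 438 ± 152 CPM in knock-in males (SD, n = 5) and 395 ± 47.6 CPM in 5xFAD males (SD, n = 5). The medians of these sums were 380 and 391 CPM, and the highest sum, 696 CPM, was that of 1 knock-in male. By class the medians were 102 and 94.0 CPM (fibrillar), 110 and 101 CPM (type IV) and 188 and 206 CPM (other). The part of single libraries in the 35 was not tested. The male groups were apart for 0 collagens, against 0.527% of all genes with the knock-in higher and 0.494% with it lower. All 11 fibrillar and all 6 type IV chains were above 0, with values from 0.13 to 0.52 and from 0.06 to 0.90, none past the threshold. For the chains that fell in females, male log2 changes were 0.15 for Col5a1 (SE 0.38), 0.20 for Col19a1 (SE 0.31), 0.13 for Col11a1, 0.17 for Col5a2, 0.21 for Col4a2 and -0.14 for Col6a1. In the same males 8 of 8 choroid plexus, 8 of 8 fibroblast and 7 of 8 mural genes (pericyte and smooth muscle) were above 0 in log2 change, with 0 called, and their part in the male values was not tested. In females, where 11 collagens fell, 8 of 8 genes in each of these lists were above 0 too, with 0 called, against 51.1% of all genes above 0. Of 8 endothelium genes, 8 were above 0 in females and 5 in males, with 0 called.

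**Figure D3:**
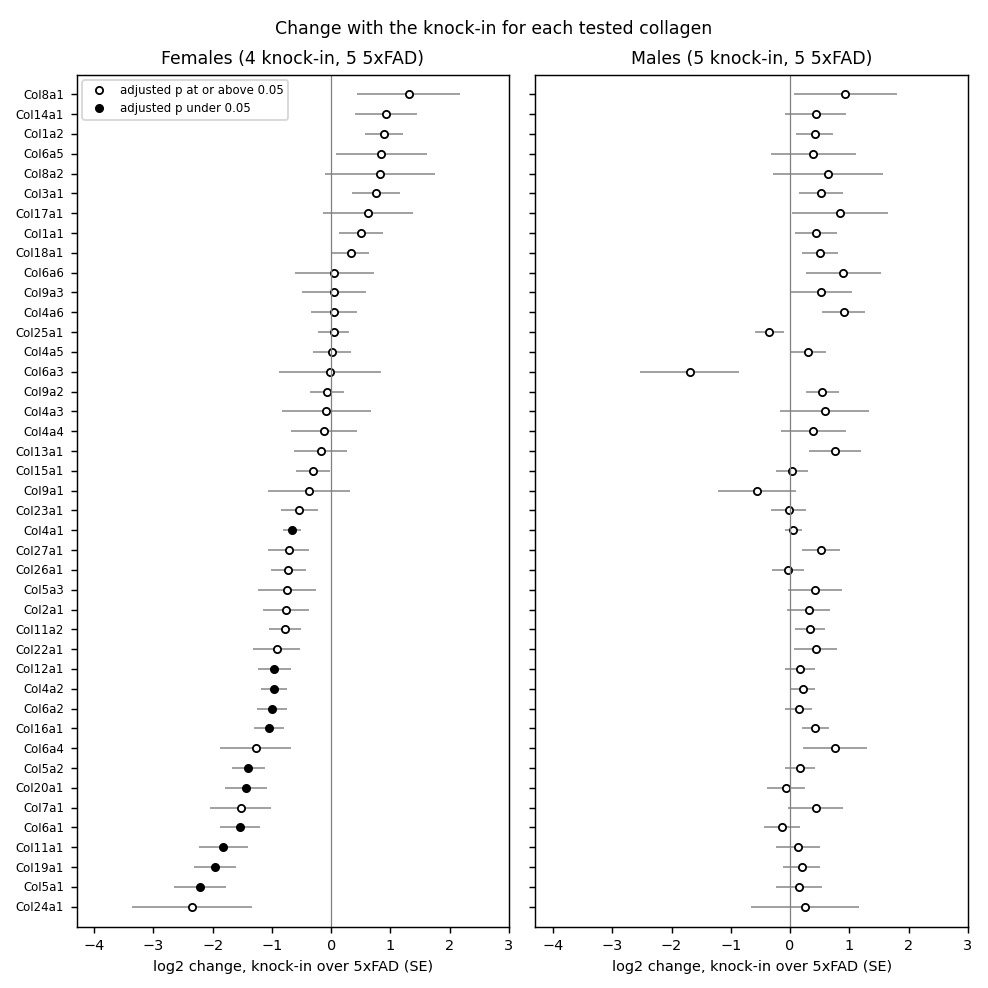
Log2 change with the knock-in for each of the 42 tested collagens (points, bars are 1 SE), in females at left and males at right, ordered by the female value. Filled points, at edgeR adjusted p under 0.05, number 11 in females, all left of 0, and 0 in males, where 35 of 42 points lie right of 0.

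The difference between the sexes was tested as an interaction, the change in females minus that in males. By edgeR 0 of 42 collagens passed, against 0.291% of all genes called lower, 0.0165% higher and 0.308% in either direction. Of the 42, 10 were above 0, against 48% of all genes, 16 had an unadjusted p under 0.05 (17.7% of all genes), and limma-voom also called 0. DESeq2 called 10 collagens among 766 of all genes, and edgeR on library size alone called 6 among 402, the collagens all negative, where the main edgeR fit called 56 of all genes. The lowest edgeR adjusted p was 0.0506 for Col19a1 (-2.16, SE 0.47), followed by 0.0538 for Col16a1 (-1.48), 0.0570 for Col5a2 (-1.57) and 0.0676 for Col5a1 (-2.36) and Col4a2 (-1.18). Just above the threshold in edgeR, these values moved below it without knock-in male 7, when 7 collagens and 489 of all genes passed. When knock-in female 5, knock-in male 8 or 5xFAD male 6 was left out, 3 collagens passed, among 266, 120 and 190 of all genes, and without 5xFAD male 7 it was 2 among 138.

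Over both sexes together, with sex as a covariate, 0 of 42 collagens passed in edgeR (0.022% of all genes), DESeq2 or limma-voom. Of the 42, 17 were above 0, against 49.6% of all genes, and for 0 of them did the groups not overlap, against 0.00549% with the knock-in higher. Here 7 had an unadjusted p under 0.05, against 11.9% of all genes, and the lowest adjusted p was 0.303 for Col1a2 (0.64, SE 0.22), at 17.9 ± 7.15 CPM with the knock-in (SD, n = 9) and 11.4 ± 3.20 CPM without (SD, n = 10).

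Between sexes, female minus male, 0 of 42 passed within 5xFAD in edgeR (0.0385% of all genes, 0.011% higher and 0.0275% lower), DESeq2 or limma-voom, with 10 at an unadjusted p under 0.05 (11.1% of all genes). Here 37 of 42 were above 0, against 50.9% of all genes. Col16a1 and Col19a1 were higher in every 5xFAD female than in every 5xFAD male, as were 1.05% of all genes, and 0 were lower in every female, against 1.72%, with log2 differences of 0.74 each (edgeR adjusted p = 0.350 and 0.403). Within the knock-in, 0 passed in edgeR (0.0494% of all genes, 0.0165% higher and 0.033% lower) or limma-voom and 7 in DESeq2 (510 of all genes), all 7 lower in females, with 16 at an unadjusted p under 0.05 in edgeR (14.4% of all genes). In 5 chains, Col5a1, Col5a2, Col6a1, Col6a2 and Col22a1, every knock-in female was below every knock-in male, against 3.46% of all genes, and in 0 above, against 1.51%. Of the 42, 15 were above 0, against 47.4% of all genes. The lowest edgeR adjusted p was 0.0903, for Col19a1 (-1.43) and Col11a1 (-1.71). Without knock-in male 7, or without 5xFAD male 10, 4 passed, among 340 and 324 of all genes, against 9 of all genes in the full fit. These sex differences and the genotype effects share libraries and are not independent.

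Other RNAs moved beside the collagens in females. A list of 8 long noncoding RNAs (Kcnq1ot1, Malat1, Meg3, Miat, Mirg, Neat1, Rian and Snhg11) summed to 5332 to 6943 CPM in 5xFAD females and 1212 to 2419 CPM in knock-in females, with 8 of 8 below 0 in log2 change, 7 of 8 called lower and none at 0 in any library. Of all tested genes, 4.43% were called lower in females, and 9.03% were lower in every knock-in female than in every 5xFAD female. In males the sums were 1459 to 6280 CPM in 5xFAD and 2624 to 7801 CPM with the knock-in, with 0 called. With the mean log2 level of this list as a covariate, 0 of all genes passed in females in edgeR and 0 of 42 collagens had an unadjusted p under 0.05, and log2 changes of the 11 lay between -0.70 for Col19a1 and 0.053 for Col20a1, whose sign turned. The female groups did not overlap in this level, so in females genotype and noncoding level cannot be told apart.

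Choroid plexus and leptomeningeal fibroblast genes also varied. A list of 8 choroid plexus genes, led by Ttr, summed to 620 to 5253 CPM in 5xFAD females, 3482 to 11463 CPM in knock-in females, 63.8 to 3485 CPM in 5xFAD males and 32.6 to 3420 CPM in knock-in males, with 0 of 8 called in females and 1 gene at 0 in 1 library, knock-in male 8. A list of 8 leptomeningeal fibroblast genes summed to 92.2 to 308 CPM in 5xFAD females, 266 to 501 CPM in knock-in females, 84.0 to 238 CPM in 5xFAD males and 74.8 to 328 CPM in knock-in males, with 0 of 8 called and none at 0. With the choroid plexus level as a covariate 9 collagens and 505 of all 18204 genes were called in females, and the lost chains Col20a1 and Col12a1 had log2 changes of -1.31 and -1.04 (edgeR adjusted p = 0.0529 for both). With the fibroblast level 3 collagens were called, Col5a1, Col5a2 and Col19a1, and 130 of all genes, against 1013 of all genes without a covariate. The 8 chains lost there had log2 changes from -1.50 for Col11a1 to -0.56 for Col4a1 (edgeR adjusted p = 0.0534 to 0.111), against -1.82 and -0.66 for the same genes without the covariate.

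Of 6 astrocyte genes, 2 were called higher in knock-in females, against 1.13% of all genes. Single genes higher in every knock-in female than in every 5xFAD female made up 3.86% of all genes. In the same female fit 51.1% of all genes had a log2 change above 0 and 22.1% an unadjusted p under 0.05. The 6 genes summed to 1848 to 2273 CPM in 5xFAD females and 2510 to 2934 CPM in knock-in females, ranges that did not overlap, with 6 of 6 above 0 in log2 change, 6 at an unadjusted p under 0.05, and Gfap (0.59, edgeR adjusted p = 0.0265) and Aqp4 (0.54, edgeR adjusted p = 0.0403) called higher. The astrocyte sums in males were 1681 to 2235 CPM in 5xFAD and 2082 to 2687 CPM with the knock-in, with 0 called. A list of 6 microglia genes summed to 586 to 689 CPM in 5xFAD females and 640 to 995 CPM in knock-in females, with 6 of 6 above 0, 4 at an unadjusted p under 0.05 and 0 called, and to 479 to 629 CPM and 571 to 917 CPM in 5xFAD and knock-in males. No gene of these lists was at 0 in any library, and their part in the collagen values was not tested.

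To describe which collagens varied with these levels from animal to animal, each gene was fitted with a slope on the level within groups, a choice made after seeing the data for 5 levels. A slope is the log2 change of the gene per 1 log2 unit of the level. The counts of all genes include the 7 or 8 genes of each list, which were fitted on a level that they form. The lists hold no collagen. The genes named from these fits were picked by the fits and lie partly outside the naming rule.

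With the noncoding level, 8 of 42 collagens rose within groups, against 3.89% of all genes. They were Col7a1 (slope 1.39), Col5a1 (1.01), Col20a1 (0.94), Col11a1 (0.92), Col19a1 (0.77), Col5a2 (0.72), Col4a2 (0.55) and Col4a1 (0.34), with edgeR adjusted p of 0.00141 to 0.031. Male 10 of each genotype shows the range. In 5xFAD male 10, whose noncoding sum was the lowest of its group at 1459 CPM, Col5a1, Col19a1, Col5a2, Col20a1 and Col4a2 were each lowest of the group. In knock-in male 10, whose sum was the highest of all libraries at 7801 CPM, Col5a1, Col19a1, Col20a1 and Col4a2 were each highest of the group. Without knock-in male 7, or without knock-in male 10, 5 collagens rose, and 497 and 428 of all genes had a slope past the threshold, against 714 in the full fit.

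With the choroid plexus level 7 of 42 rose, against 1.16% of all genes. Col8a1 and Col8a2, the network chains of subendothelial and corneal matrix, both had a slope of 0.80 (edgeR adjusted p = 1.08e-08 and 2.04e-05), Col4a3 had 0.71, Col17a1 0.56, Col9a3 0.41, Col4a4 0.40 and Col18a1 0.25. Col8a1 was at 2.03, 24.1, 18.2, 7.68 and 12.6 CPM in 5xFAD females, at 29.5, 24.4, 55.0 and 19.1 CPM in knock-in females, at 4.41, 0.972, 1.41, 2.87 and 14.2 CPM in 5xFAD males and at 0.677, 11.4, 1.62, 8.31 and 23.6 CPM in knock-in males. The low libraries for this gene were also low in choroid plexus RNA, such as 5xFAD female 1 and knock-in males 6 and 8, and the highest for both was knock-in female 4. Col4a3 and Col4a4, read from the head-to-head pair printed above, and the type IX chain Col9a3 share this pattern. No other type IV chain passed with the choroid plexus level.

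With the fibroblast level 3 of 42 rose, against 0.0879% of all genes, and they were the chains of types I and III, the main fibrils of meninges and adventitia. Slopes were 0.95 for Col3a1, 0.83 for Col1a1 and 0.81 for Col1a2, with edgeR adjusted p of 0.0235, 0.0414 and 0.00213. Knock-in male 7 had the highest level of Col1a1 at 19.6 CPM and of Col3a1 at 8.62 CPM over all libraries, and without it 0 of the 3 and 5 of all genes passed, against 16 of all genes in the full fit. Without knock-in female 1, knock-in male 6 or 5xFAD male 8, 1 collagen passed, among 9, 13 and 7 of all genes. With the mural level (8 pericyte and smooth muscle genes) Col1a1 alone rose (slope 1.61, edgeR adjusted p = 0.0351), against 1.41% of all genes, and with the interneuron level 0 did (0.104% of all genes). The median slope of the 42 was -0.42 on the mural and -0.83 on the interneuron level, against 0.004 and -0.003 over all genes. Col19a1 had a slope of -0.96 on the interneuron level (SE 0.66, edgeR adjusted p = 0.533). For these 5 levels 0 collagens fell with any of them, against 0.033% of all genes with the noncoding, 1.63% with the mural, 0.011% with the interneuron and 0% with the other levels.

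**Figure D4:**
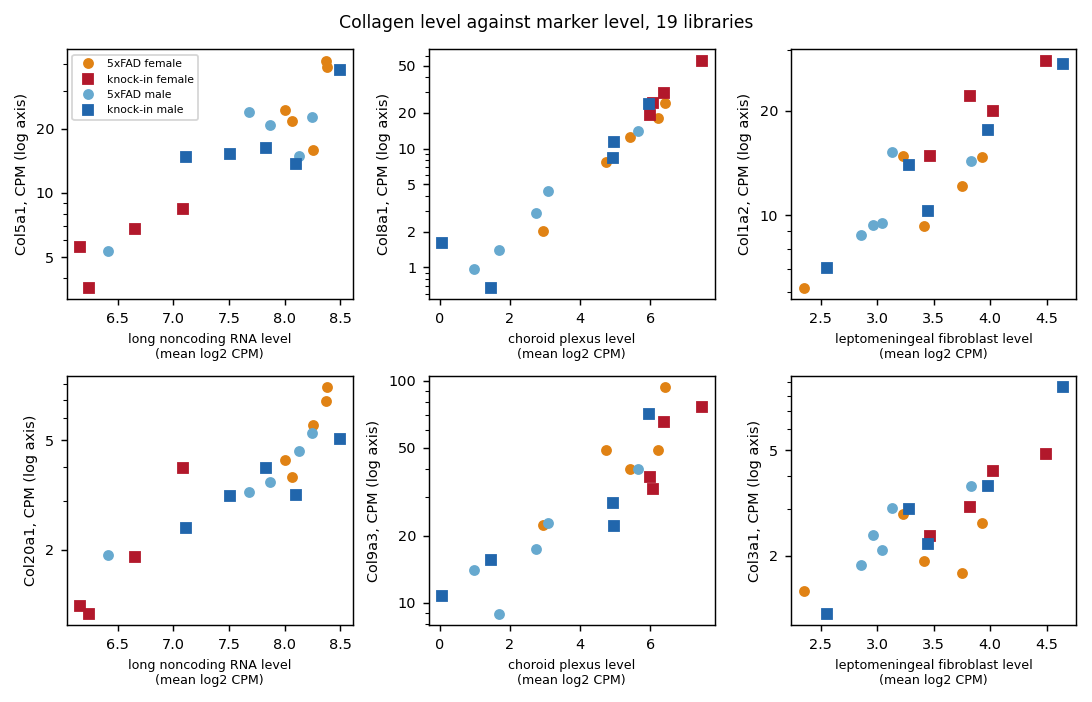
Collagen level (CPM, log axis) against the mean log2 CPM of a marker list in each of the 19 libraries, for Col5a1 and Col20a1 with long noncoding RNA, Col8a1 and Col9a3 with choroid plexus, and Col1a2 and Col3a1 with leptomeningeal fibroblast genes. Points are coloured by group, and the knock-in females lie at the low end of the noncoding level and the high end of the choroid plexus level.

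Genes that modify, cut, anchor and bind collagen were called in few cases, 1 in each of 5 lists, beside the 5.56% of all genes called in females (4.43% lower and 1.13% higher). In females 1 of 19 genes of chain modification and folding was called, P3h3, a prolyl 3-hydroxylase, at 24.8 ± 4.25 CPM in 5xFAD (SD, n = 5) and 13.4 ± 3.09 CPM with the knock-in (SD, n = 4), a log2 change of -0.89 (edgeR adjusted p = 0.0265). Of 14 genes of propeptide cleavage and cross-linking 1 was called, Pxdn, the peroxidasin that cross-links type IV collagen, at 95.5 ± 9.58 CPM in 5xFAD (SD, n = 5) and 48.7 ± 7.48 CPM with the knock-in (SD, n = 4), a log2 change of -0.97 (edgeR adjusted p = 0.00984). Of 17 fibril and basement membrane partners 1 was called, Agrn, a basement membrane heparan sulfate proteoglycan, at 213 ± 16.9 CPM in 5xFAD (SD, n = 5) and 124 ± 9.77 CPM with the knock-in (SD, n = 4), a log2 change of -0.78 (edgeR adjusted p = 0.00984). For these 3 genes every knock-in female lay below every 5xFAD female, as was so for 9.03% of all genes.

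Of 9 tested degradation genes, Timp3, an inhibitor of matrix metalloproteinases, was called higher, at 95.6 ± 16.5 CPM in 5xFAD (SD, n = 5) and 144 ± 28.2 CPM with the knock-in (SD, n = 4), a log2 change of 0.59 (edgeR adjusted p = 0.0225). Of 9 receptors, Itgb1, the beta chain of the collagen-binding integrins, was called higher, at 58.2 ± 5.43 CPM in 5xFAD (SD, n = 5) and 77.1 ± 9.03 CPM with the knock-in (SD, n = 4), a log2 change of 0.41 (edgeR adjusted p = 0.0241). List medians ran from 0.05 for the partners to 0.45 for degradation, each above the -0.46 of the collagens. In males 0 genes of these lists were called, as were 0 genes overall. Agrn was called in the interaction (-0.93, edgeR adjusted p = 0.0499), and Pxdn was not (-1.05, edgeR adjusted p = 0.0550).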

How the data were processed

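The series measured bulk RNA of mouse hippocampus in 19 libraries. The authors deposited estimated counts per gene as whole numbers, used here for the main tests. Their deposited normalized counts, a signal scaled by the authors, served as an alternative, and their variance-stabilized values were not used. The tools named in the submitters' processing notes are Salmon, FastQC, Seurat and DESeq2, and the build is mm39, with no versions or roles. Strandedness is not given in the sources used here, so reads of genes overlapping on opposite strands may be mixed.

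GENCODE M21 (GRCm38) gave symbols, chromosomes and lengths for 20023 of 20655 genes. Since builds differ, coordinates are printed only for the RefSeq sequences on GRCm38.p6. Tests used the edgeR package (4.0.16, under R 4.3.3, with TMM, filterByExpr with a minimum of 10 counts, robust quasi-likelihood), which kept 18204 genes, and Benjamini-Hochberg p-values over these have a threshold of 0.05. The genotype effect over both sexes had sex as a covariate, and all other comparisons came from 1 mean per group. Slopes added a marker level to these means. The SE of an edgeR log2 change or slope is its size divided by the square root of the quasi-likelihood F statistic. The female genotype fit and a slope fit were run on simulated counts with known changes, and the outcome is not given here. Apart from the planted changes, genes were drawn independently. The check thus cannot show how calls behave where many genes vary together between libraries.

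Named with values are Col5a1, Col19a1, each collagen past the threshold, the 3 with the highest level per length in each class, and pathway genes past the threshold. The members and lists were chosen with earlier results of these data known. Alternatives were DESeq2 1.42.0, limma-voom (limma 3.58.1), other scalings (RLE, library size, the normalized counts on log2 with a pseudocount of 1), other filters (none, or 1 CPM in at least 4 libraries), 1 sex only, a replicate block, the noncoding level as a covariate and leaving out each library. The slopes and the choroid plexus and fibroblast covariates were chosen after seeing the data.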

Additional observations from a re-analysis of the deposited data

Results flagged for a closer look

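Within groups of 4 or 5 libraries, 12 values of the 26 named collagens, over 104 combinations of gene and group, stood apart from their group, with a gap to the nearest other library that exceeded the 95% critical share of the group's range. Chance flags about 1 in 20 groups if values are normally distributed. The gaps were taken on CPM and not on log2 values, so the number and direction of the flags may depend on that scale, which was not tested. All 12 were high values.

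Knock-in male 10 stood apart for Col5a1 (gap 0.893 of the range, at 37.6 CPM against 13.7 to 16.3 CPM in the other males of the group), Col13a1 (0.949), Col16a1 (0.766) and Col9a3 (0.711, at 71.2 CPM against 10.7 to 28.2 CPM). 5xFAD male 10 stood apart for Col8a2 (0.879, at 19.1 CPM against 1.15 to 3.33 CPM), Col8a1 (0.741) and Col13a1 (0.796). 5xFAD male 7 stood apart for Col12a1 (0.767) and Col15a1 (0.751, at 11.1 CPM against 2.67 to 4.76 CPM). Col19a1 stood apart in 5xFAD female 4 (0.736, at 18.3 CPM against 11.1 to 13.0 CPM). Col6a3 stood apart in knock-in female 1 (0.898, at 12.1 CPM against 1.64 to 2.70 CPM) and in 5xFAD female 2 (0.738, at 12.7 CPM against 1.53 to 4.46 CPM).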

How the results depend on the processing

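The 11 female calls became 5 on the authors' normalized counts, 3 with the fibroblast level as a covariate and 0 with the noncoding level, where Col20a1 turned to 0.053. They numbered 10 to 14 under DESeq2, limma-voom, RLE factors, library size only, both other filters and female libraries alone. The counts of all genes in those female fits are not given here, so these numbers cannot be set against them. Leaving out 1 library gave 0 to 11. The interaction count of 0 became 10 in DESeq2, 6 with library size only and 1 with the stricter filter, and 0 to 7 without 1 library. The sex effect in knock-in went from 0 to 7 in DESeq2 and 0 to 4 without 1 library. Without 1 library the slope counts were 5 to 9 (noncoding), 5 to 7 (choroid plexus) and 0 to 3 (fibroblast). Counts of all genes moved too in the fits for which they are given with the results. For other fits, among them the stricter filter in the interaction and the choroid plexus slopes without 1 library, they are not given. The cause was not tested.

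The replicate block gave 0 calls in females, with 17 collagens at an unadjusted p under 0.05. The share of all genes at that p with the block is not given here. Without the block it was 22.1% of all genes, and 18 of 42 collagens. Same-numbered libraries did not deviate together (2 of 9 pairs had a correlation over 0.1, and 1 of 9 was best with its own number). No pairing by number was thus seen, but this check cannot exclude one. Low counts limit the rarer chains, such as Col28a1 with 98 counts in all libraries together. No sex effect has a block fit, since the sexes share no number.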

Other observations

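Col6a3, a type VI chain, was high in a few libraries. It was at 24.0 CPM in 5xFAD male 7, 11.4 CPM in 5xFAD male 6, 12.7 CPM in 5xFAD female 2 and 12.1 CPM in knock-in female 1, and between 1.53 and 4.46 CPM in the other libraries. These 4 libraries came from 3 of the 4 groups. Col6a1 and Col6a2 ran from 7.02 to 42.1 CPM and from 4.30 to 13.3 CPM over the same 19 libraries.

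Col25a1 did not pass a test in any comparison, at 58.5 ± 10.3 CPM in 5xFAD females (SD, n = 5), 60.3 ± 25.5 CPM in knock-in females (SD, n = 4), 67.8 ± 26.2 CPM in 5xFAD males (SD, n = 5) and 53.2 ± 8.93 CPM in knock-in males (SD, n = 5).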
